A study of Mus musculus with 9 samples.

Results

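miR-140 is a microRNA (miRNA) whose hairpin precursor gives 2 mature products, mmu-miR-140-5p from its 5′ arm and mmu-miR-140-3p from its 3′ arm. These 2 members were taken by name from the 1915 mature miRNAs of each count table, and both were among the 304 miRNAs tested. They were measured by small RNA sequencing of whole tibialis anterior (TA) muscle, a fast-twitch muscle of the lower leg, from 4 control mice (C1 to C4) and 5 tumor-bearing mice (L1, L2, L3, L5 and L6). The LLC group received 750000 Lewis Lung Carcinoma (LLC) cells, a mouse lung carcinoma line that causes cachexia, under the skin of each flank, and the control group received phosphate-buffered saline (PBS). Muscles were collected at day 22. The labels name no engineered allele in any of these mice. The sample labels give C57BL/6J mice aged 10 weeks, whereas the study's design text gives male C57BL/10 mice aged 8 weeks, and this difference could not be settled. Each library is taken as a separate mouse, and a tumor grown under the skin is 1 model of cancer cachexia.

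The miR-140 hairpin lies inside Wwp2, which encodes an E3 ubiquitin ligase, and is transcribed in the same direction as this host gene. miR-140 is best known from cartilage, where the transcription factor SOX9 drives its expression and where its loss in mice gives short bones and early joint degeneration. Known targets include Hdac4, a histone deacetylase that restrains chondrocyte maturation, and Adamts5, a protease that cuts the cartilage proteoglycan aggrecan. Of most hairpins, one arm is loaded into Argonaute and the other is degraded, but both arms of miR-140 are known to accumulate.

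The sequences are shown to place mmu-miR-140-3p within the hairpin and to show its seed, bases 2 to 8 of the mature miRNA, which pairs with targets. They were taken from RefSeq (GRCm38.p6), where 1 of the 2 members, mmu-miR-140-3p, was matched by name. In the hairpin the capitals mark mmu-miR-140-3p, and in the mature sequences they mark the seed.
Mir140 hairpin: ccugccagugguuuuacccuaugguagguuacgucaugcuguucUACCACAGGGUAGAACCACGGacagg
mmu-miR-140-3p: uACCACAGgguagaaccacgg
mmu-miR-497b: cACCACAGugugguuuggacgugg

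The hairpin of 70 bases lies on the plus strand at chr8:107551244-107551313, and mmu-miR-140-3p takes up its bases 45 to 65, at chr8:107551288-107551308. RNAfold placed 60 of the 70 bases in pairs, with a predicted free energy of -39.10 kcal/mol. Of the 21 bases of mmu-miR-140-3p, 20 were paired. In the GENCODE annotation of the same build (release 21), Wwp2 spans chr8:107436365-107558595 and has 11 transcripts, of which 4 cover the hairpin. In 3 protein-coding transcripts the hairpin is intronic, within 1 shared intron of 2141 bases at chr8:107550136-107552276. This is intron 16 of Wwp2-201, intron 15 of Wwp2-204 and intron 7 of Wwp2-205. The hairpin starts 1108 bases after the upstream exon and ends 963 bases before the downstream exon. The remaining transcript, Wwp2-206, is annotated as a retained intron, and its single exon contains the hairpin. The nearest other miRNA gene, Mir7075, is 455138 bases away, so the hairpin is not part of a miRNA cluster. The seed of mmu-miR-140-3p is shared with mmu-miR-497b, a miRNA from chr11:70234763-70234786 on the minus strand. mmu-miR-497b had 0 or 1 count per library, 2 counts in all, and was too low to test.

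Control libraries held 4992339 to 6548379 counts and LLC libraries 6216566 to 7833161. Counts were scaled with edgeR's TMM factors and are given as counts per 1000000 (CPM). The factors ranged from 0.762 to 1.15, and 2 LLC libraries, L5 (0.762) and L1 (0.876), stood apart at the low end. The 5 most abundant miRNAs held 53.9 to 68.5% of a library. The muscle miRNA miR-133a-3p had 89338 to 186111 counts per library, whereas miR-1a-3p, another defining muscle miRNA, had only 62 to 171. Libraries of the same group differed by far more than counting noise (lowest chi-square per degree of freedom 124), so none was counted as a copy of another.

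Both arms were detected in every library, and neither passed the test for a difference between the LLC and control groups. By counted reads, mmu-miR-140-5p was the higher arm in all 9 libraries. The levels of the 2 groups overlapped for each arm, for their sum and for their ratio. One LLC library, L6, had the lowest mmu-miR-140-5p level and the highest share of mmu-miR-140-3p.

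The level of mmu-miR-140-5p was 39.8 CPM in C1, 47.9 in C2, 40.2 in C3 and 40.1 in C4. In the LLC group it was 38.2 CPM in L1, 44.3 in L2, 40.0 in L3, 45.2 in L5 and 28.2 in L6. C2 was high among the control mice, whose other libraries were within 1 CPM of each other, and L6 was below every other library. These levels rest on 203 to 362 counts per library. Control mice averaged 42.0 ± 3.96 CPM (SD, n = 4) and LLC mice 39.2 ± 6.80 CPM (SD, n = 5). The log2 fold change, LLC against control, was -0.11 (SE 0.152, edgeR quasi-likelihood test, adjusted p = 0.701). The 95% interval ran from -0.43 to 0.22, so a fall of more than 1.35-fold or a rise of more than 1.16-fold lay outside it. In CPM, 3 of the 5 LLC libraries were below the control mean (two-sided exact permutation test of log2 CPM, p = 0.532, smallest possible p 0.00794). Without L6 the log2 fold change was 0.02, and the direction turned.

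The level of mmu-miR-140-3p was 16.4 CPM in C1, 19.3 in C2, 17.4 in C3 and 13.4 in C4. In the LLC group it was 13.8 CPM in L1, 18.7 in L2, 14.5 in L3, 12.8 in L5 and 17.8 in L6. The lowest values came from L5 and C4 and the highest from C2 and L2, so each group had mice at both ends. These levels rest on 65 to 155 counts per library. Control mice averaged 16.6 ± 2.46 CPM (SD, n = 4) and LLC mice 15.5 ± 2.57 CPM (SD, n = 5). The log2 fold change was -0.10 (SE 0.172, edgeR quasi-likelihood test, adjusted p = 0.766), with a 95% interval from -0.46 to 0.27. Changes beyond a 1.38-fold fall or a 1.20-fold rise lay outside this interval. Again 3 of the 5 LLC libraries were below the control mean (two-sided exact permutation test, p = 0.50). Without L1 and L5, the 2 LLC libraries with low TMM factors, the log2 fold change was 0.06.

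Because whole muscle was sequenced, fewer cells of a type and less of the miRNA per cell cannot be told apart for any of these values. Among all 304 miRNAs tested, edgeR called 0 at an adjusted p of at most 0.05 with a fold change of at least 1.5 (0%), while 50 (16.4%) reached an unadjusted p of at most 0.05. DESeq2 called 8 miRNAs. Neither arm was among the 50, and neither was among the 18 miRNAs (5.92%) whose CPM did not overlap between the groups. Of the tested miRNAs, 69 (22.7%) had a smaller log2 fold change than mmu-miR-140-3p in either direction, and 80 (26.3%) had a smaller one than mmu-miR-140-5p.

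**Figure D1:**
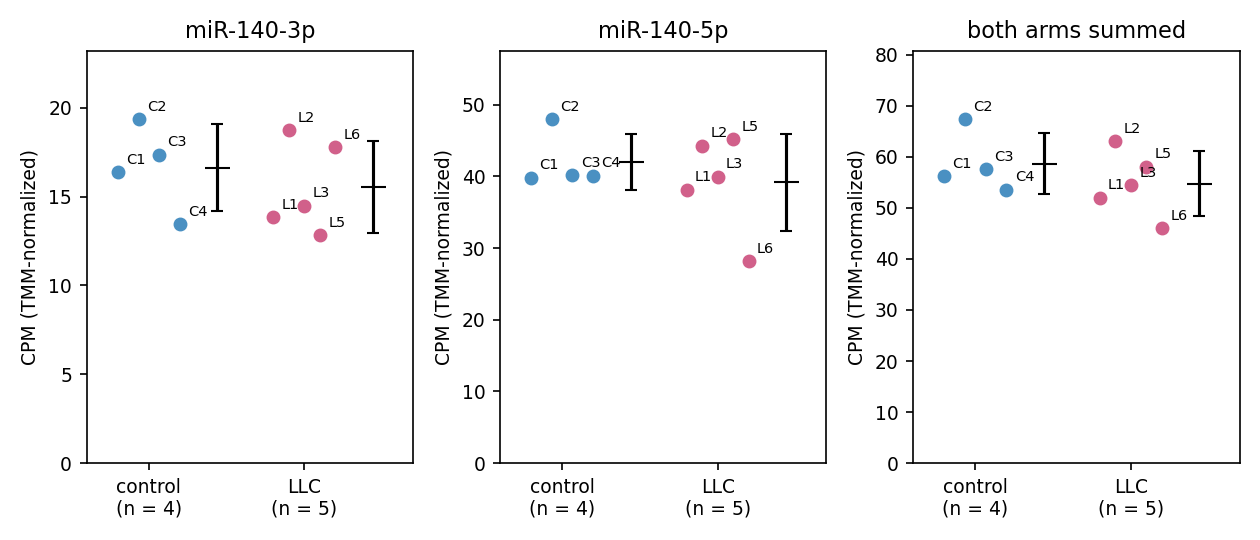
Levels of mmu-miR-140-3p, mmu-miR-140-5p and both arms summed, in TMM-normalized CPM, with 1 point per library and the mean ± SD beside each group (control, n = 4; LLC, n = 5). The groups overlap in every panel, and L6 has the lowest mmu-miR-140-5p level, 28.2 CPM.

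The sum of both arms is the total of the reads counted for the 2 mature products of the hairpin. It was 56.2 CPM in C1, 67.3 in C2, 57.5 in C3 and 53.5 in C4, against 52.0 in L1, 63.0 in L2, 54.5 in L3, 58.0 in L5 and 46.0 in L6. The highest library of each group was its replicate 2 and the lowest overall was L6. Control mice averaged 58.6 ± 6.00 CPM (SD, n = 4) and LLC mice 54.7 ± 6.41 CPM (SD, n = 5), a difference of -0.10 in mean log2 CPM (two-sided exact permutation test, p = 0.373).

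The spread between mice was set beside the spread that counting alone gives at these depths. For mmu-miR-140-3p the coefficient of variation was 14.8% over control and 16.6% over LLC mice, where counting alone gives 10.0% and 10.2%. For mmu-miR-140-5p it was 9.42% over control and 17.4% over LLC mice, where counting alone gives 6.22% and 6.30%. The widest gap between measured and counting spread was that of mmu-miR-140-5p in the LLC group, which holds L6.

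The arm ratio compares both products of the same hairpin in the same library, so it needs no scaling factor. mmu-miR-140-3p made up 29.2% of the counts of both arms in C1 (95% Wilson interval 25.0 to 33.7), 28.7% in C2 (25.0 to 32.8), 30.2% in C3 (25.4 to 35.4) and 25.1% in C4 (20.3 to 30.6). In the LLC group it made up 26.6% in L1 (22.0 to 31.8), 29.7% in L2 (25.4 to 34.5), 26.6% in L3 (22.5 to 31.1), 22.1% in L5 (17.7 to 27.2) and 38.7% in L6 (34.0 to 43.5). The 4 control libraries lay close together, and L5 and L6, both LLC, were the lowest and the highest of all 9. The interval of L6 overlapped only those of C3 and L2. These intervals cover counting error only. Expressed as a fold, mmu-miR-140-5p exceeded mmu-miR-140-3p by 2.32 to 2.99 times in control mice and by 1.59 (L6) to 3.52 times (L5) in LLC mice.

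**Figure D2:**
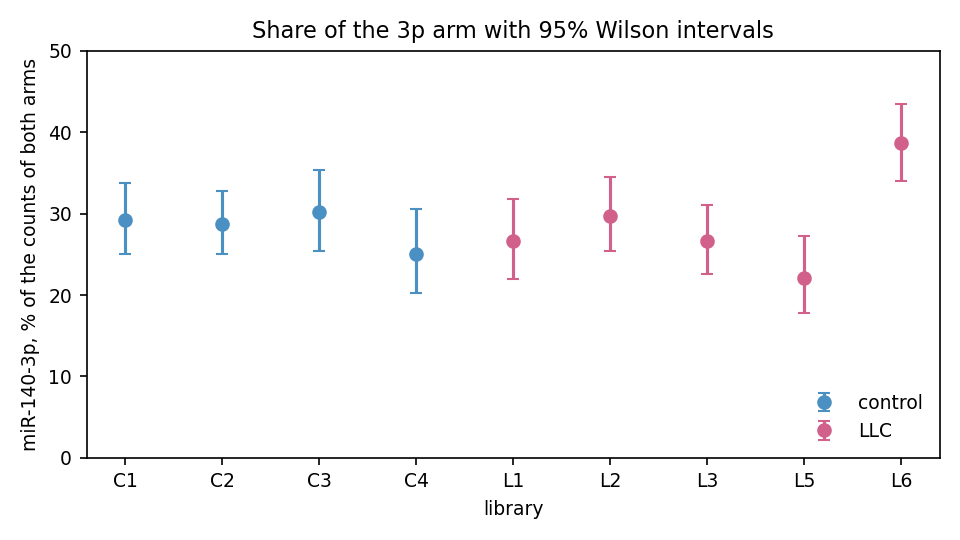
Share of mmu-miR-140-3p in the counts of both miR-140 arms, in percent, for each library, with 95% Wilson intervals that cover counting error only. The control libraries lie between 25.1 and 30.2%, L5 is lowest at 22.1% and L6 is highest at 38.7%.

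On the log2 scale (3p over 5p), the ratio averaged -1.34 ± 0.159 over control mice (SD, n = 4) and -1.33 ± 0.422 over LLC mice (SD, n = 5). The difference in means was 0.01 (two-sided exact permutation test, p = 0.976). A limma fit over the 74 hairpins with both arms tested gave a 95% interval from -0.47 to 0.50 (adjusted p = 0.962), which as a fold is 0.720 to 1.42. Without L6 the difference was -0.15. limma called 0 of the 74 hairpins (0%), while 12 (16.2%) reached an unadjusted p of at most 0.05, miR-140 not among them. One of the other hairpins had a smaller change of its arm ratio than miR-140.

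The libraries of the LLC group differed more in this ratio than those of the control group. The chi-square of the arm counts per degree of freedom, which is near 1 where counting explains the whole spread, was 0.694 over the control and 6.72 over the LLC libraries. Over the 74 hairpins its median was 3.40 and 5.46, respectively. These hairpins differ in depth, and for the same relative spread this measure grows with the counts. Without L6, the library with the highest share of mmu-miR-140-3p, the LLC value of miR-140 was 1.66. The difference in spread between the groups was not itself tested.

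L6 and L5 were then compared with the other libraries over all hairpins. In L6 the log2 ratio of miR-140 was 0.75 above the mean of the other libraries, whereas the median hairpin was 0.09 above. L6 had the highest 3p-to-5p ratio for 3 of the 74 hairpins and the lowest for 6, so its arm ratios were seldom extreme. In L5 the ratio of miR-140 was 0.54 below the other libraries and the median hairpin 0.03 above. L5 had the highest ratio for 18 hairpins and the lowest for 18, more at either end than any other library. L6 was the most deeply sequenced library and L5 had the lowest TMM factor, and the part of depth and composition in these ratios was not tested.

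Across the 9 libraries, mmu-miR-140-5p was 2.52-fold above mmu-miR-140-3p on average (mean log2 ratio -1.33). For 38 of the 74 hairpins the 5p arm was the higher in every library, as for miR-140, for 29 it was the 3p arm and for 7 the higher arm varied. The median hairpin had an 11.4-fold difference between its arms, and 17 hairpins had a smaller one than miR-140. The SD of the ratio within groups was 0.336 for miR-140 and 0.355 for the median hairpin, and 29 hairpins had a smaller SD. Among the 29 hairpins of like depth, with a median of 50 to 200 counts in the lower arm, the median SD was 0.354 and 10 had a smaller one. As library preparation may capture arms unequally, these ratios are those of reads. Reads were mapped to annotated mature miRNAs, and whether both arms were counted equally well was not tested.

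**Figure D3:**
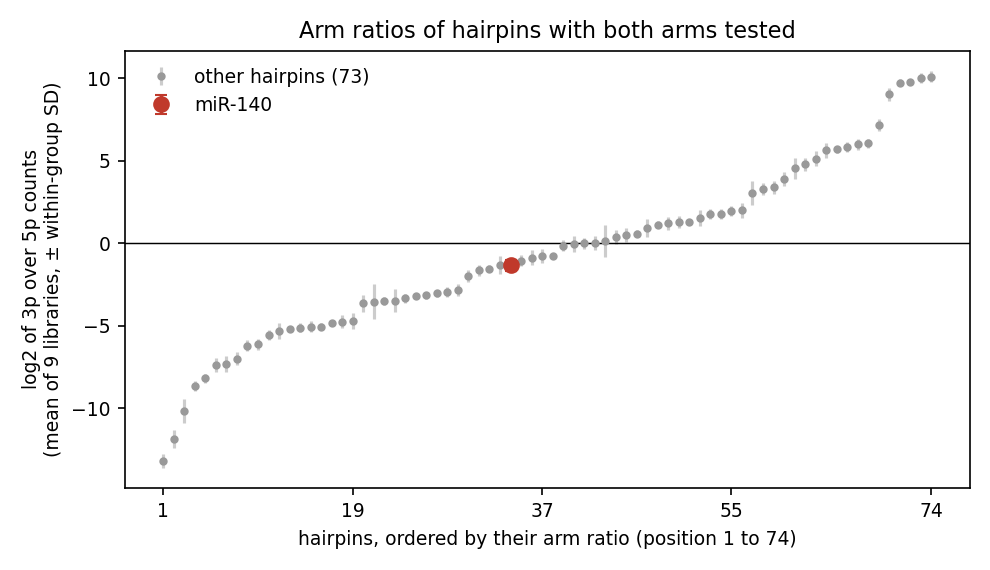
Mean log2 ratio of 3p over 5p counts of the 74 hairpins with both arms tested, ordered from lowest to highest, with bars for the within-group SD over 9 libraries. miR-140 (red) lies at -1.33, below 0, which means more 5p than 3p, and nearer to 0 than most hairpins.

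The 3 hairpins nearest to miR-140 in mean arm ratio were miR-1981, let-7d and miR-361. miR-1981 had the same mean log2 ratio, -1.33, at far lower levels, with 3.75 CPM of the 3p arm and 9.17 CPM of the 5p arm. Its ratio differed by -0.75 between the groups (limma, adjusted p = 0.255). let-7d, a member of the let-7 family of differentiation-linked miRNAs, had a mean log2 ratio of -1.55, with 418 and 1215 CPM. miR-361 had a mean log2 ratio of -1.07, with 46.3 and 97.0 CPM. The group differences in log2 ratio were 0.05 for let-7d (limma, adjusted p = 0.847) and -0.08 for miR-361 (limma, adjusted p = 0.804).

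Whether the arms moved together from mouse to mouse was examined over the 9 libraries. The Pearson correlation of their log2 CPM was -0.0338 (exact permutation of pairings, p = 0.949) and the Spearman correlation was 0.167 (exact permutation, p = 0.678). Without C4 and L5, the 2 libraries farthest from the median of mmu-miR-140-3p, r was 0.207 (exact permutation, p = 0.682). Taken as deviations from the group means, r was -0.109 (permutation of pairings, p = 0.805). That p is approximate, as deviations centered within groups were permuted across groups. For log2 CPM, leaving out L6 gave an r of 0.441 and leaving out C2 gave -0.321, so the value rests on single libraries. With library totals in place of TMM factors, r was 0.559 (exact permutation, p = 0.118); that scale leaves the composition of each library in both arms. This was the 1 relation computed. No joint variation of the arms was detectable at this number of mice and at counts of 65 to 155 for the rarer arm. As a description, the median r between the 2 arms of the 74 hairpins was 0.0190, with 33 hairpins below miR-140 and 40 above.

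**Figure D4:**
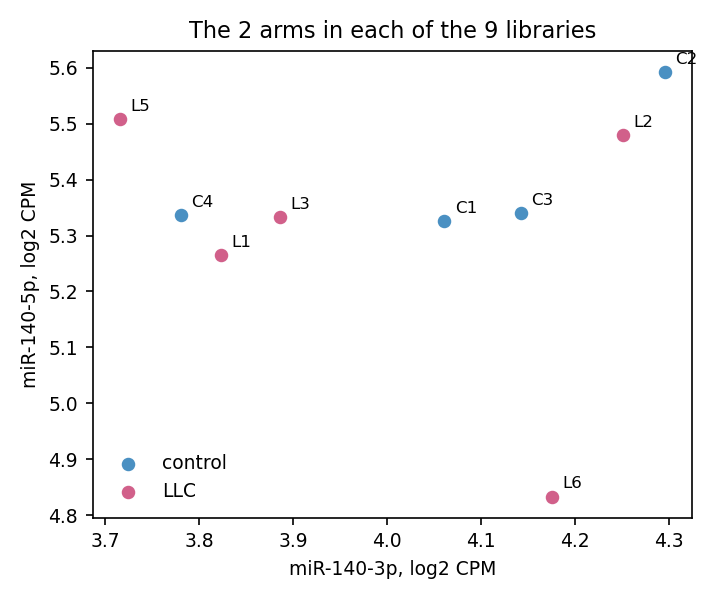
Level of mmu-miR-140-5p against mmu-miR-140-3p, both in log2 CPM (TMM), with 1 labelled point for each of the 9 libraries, colored by group. The points show no common trend (Pearson r -0.0338), and L6 lies below the rest.

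The miRNAs whose log2 CPM over the 9 libraries was most like that of each arm were listed by Pearson r, as a description. All values share the libraries and their TMM factors, and these extremes of 303 values over 9 libraries were not tested against chance. For mmu-miR-140-3p they were miR-93-5p (0.760), miR-101b-3p (0.699), miR-199a-5p (0.696), miR-101a-5p (0.682) and miR-148b-5p (0.679). For mmu-miR-140-5p they were miR-299a-3p (0.794), the slow muscle fiber miRNA miR-499-5p (0.772), miR-214-3p (0.694), miR-214-5p (0.638) and miR-26b-5p (0.637). The least alike were miR-26b-3p for mmu-miR-140-3p (-0.827) and miR-27b-5p for mmu-miR-140-5p (-0.859). The lists had no miRNA in common, and each arm was only 175th of 303 in the list of the other. miR-299a-3p had 10 to 45 counts and miR-499-5p 18 to 49, so their likeness rests on few counts.

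In the order of mean levels, mmu-miR-140-5p was 143rd and mmu-miR-140-3p 202nd of the 304 tested miRNAs. The median tested miRNA had 34.2 CPM and the quartiles were 10.4 and 256.7 CPM, which puts mmu-miR-140-5p (40.4 ± 5.59 CPM, SD, n = 9) just above the median and mmu-miR-140-3p (16.0 ± 2.43 CPM, SD, n = 9) in the lower middle. The neighbours of mmu-miR-140-5p were miR-152-5p (41.5 CPM), miR-152-3p (40.7), miR-3102-3p (40.2) and miR-199b-5p (40.0). Those of mmu-miR-140-3p were miR-7a-1-3p (16.0 CPM), let-7b-3p (16.0), miR-203-3p (15.9) and miR-421-3p (15.2). These neighbours were picked as the nearest in level, and none differed from its arm by more than the SD of that arm.

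miR-140 was set beside 14 other miRNAs linked to extracellular matrix and connective tissue, of which 12 could be tested. edgeR called 0 of the 12 and 0 of all 304 tested miRNAs, and DESeq2 called 1 of the 12 and 8 of all 304. Higher levels in LLC mice were measured for 5 and lower levels for 7, and the median of their log2 fold changes was -0.13. Over all 304 miRNAs, 141 were higher and 163 lower, with a median of -0.02. An unadjusted p of at most 0.05 was reached by 4 of the 12 (1 higher and 3 lower), against 16.4% of all tested miRNAs. The list was chosen with earlier results of these data known, so these counts are a description. The count of 4 was 2 without C1, without C2, and without L1 and L5 together. Without L3, edgeR called 1 member of the list and 8 miRNAs in all.

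The miR-29 family represses collagens and other matrix genes. miR-29b-3p averaged 46.2 ± 1.82 CPM over control mice (SD, n = 4) and 77.0 ± 20.1 CPM over LLC mice (SD, n = 5), and the groups did not overlap (43.6 to 47.8 against 51.4 to 99.8 CPM). Its log2 fold change was 0.73 (SE 0.176, edgeR, adjusted p = 0.0812), which does not pass the threshold and is the smallest adjusted p of all 304. miR-29a-3p (log2 fold change -0.17, edgeR adjusted p = 0.521) and miR-29c-3p (-0.24, adjusted p = 0.297) had values of the opposite sign. The authors, who normalized counts with DESeq2, report miR-29b-3p as differentially expressed and up-regulated in LLC muscle. The edgeR fit used here gave the same direction without a call.

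miR-199 and miR-214 are expressed in fibroblasts and other mesenchymal cells. miR-199b-5p averaged 47.9 ± 6.93 CPM over control mice (SD, n = 4) and 33.6 ± 7.94 CPM over LLC mice (SD, n = 5), without overlap, with a log2 fold change of -0.51 (SE 0.181, edgeR, adjusted p = 0.214). miR-199a-5p went from 210 ± 23.4 to 168 ± 17.4 CPM (log2 fold change -0.33, edgeR adjusted p = 0.214). miR-214-5p went from 12.9 ± 2.18 to 9.47 ± 1.99 CPM (log2 fold change -0.45, edgeR adjusted p = 0.284). For miR-214-3p the log2 fold change was -0.26 (edgeR adjusted p = 0.335) and for miR-199a-3p, whose reads cannot be told from those of miR-199b-3p, it was 0.08 (edgeR adjusted p = 0.789).

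The remaining members are miR-21a-5p, a miRNA linked to fibrosis, the smooth muscle pair miR-143-3p and miR-145a-5p, and miR-192-5p. Their log2 fold changes were 0.20 (edgeR adjusted p = 0.326), 0.34 (0.320), -0.10 (0.641) and 0.14 (0.505). miR-455-3p and miR-455-5p, which like miR-140 are abundant in cartilage, had 1 to 14 and 8 to 29 counts per library and were too low to test. In CPM before TMM, the sum of both miR-455 arms was 3.61 to 6.41 in control and 1.65 to 4.18 in LLC libraries. Both arms of miR-455 were thus below mmu-miR-140-3p in every library.

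**Figure D5:**
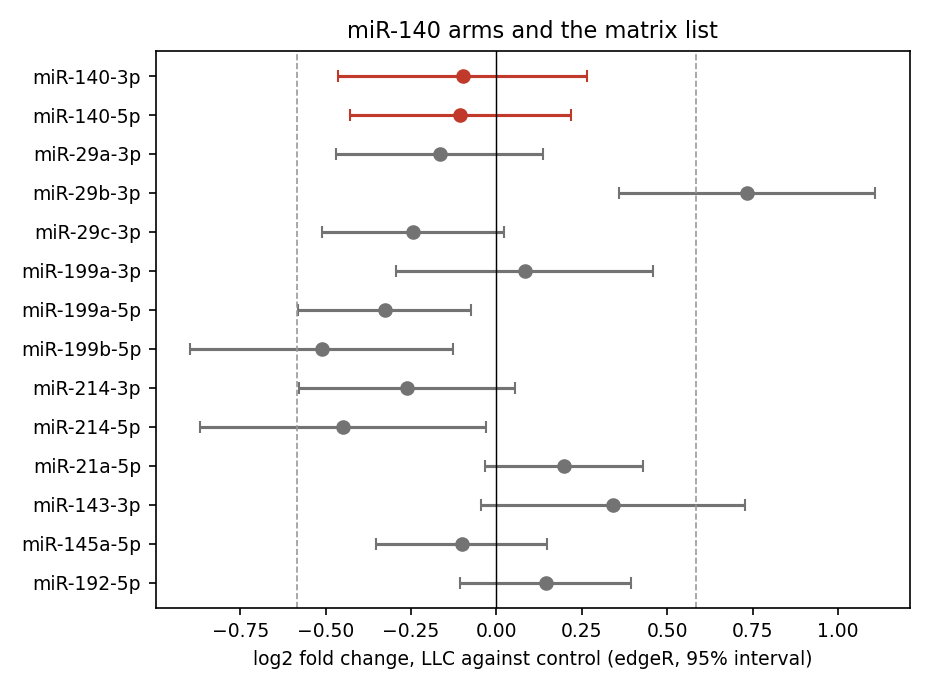
Log2 fold change of LLC against control with its 95% interval (edgeR) for both miR-140 arms (red) and the 12 tested miRNAs of the matrix list (gray), with dashed lines at a 1.5-fold change. Both miR-140 intervals include 0 and lie within the dashed lines, and the value of miR-29b-3p, 0.73, is the only one beyond them.

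Markers of other cell types were measured as summed CPM before TMM, whereas their directions and p-values came from the TMM-scaled edgeR fit. Library totals alone moved the median log2 fold change of all miRNAs by -0.14. Of all 304 tested miRNAs, 141 were higher and 163 lower in LLC mice. An unadjusted p of at most 0.05 was reached by 50 of the 304 (16.4%), 16 higher and 34 lower. The 5 fibroblast and mesenchymal miRNAs (1 higher, 4 lower, 3 with an unadjusted p of at most 0.05) summed to 2023 to 2667 CPM in control and 1739 to 2547 CPM in LLC libraries. All 5 are also on the matrix list, so the same 3 p-values are counted there. Most of this sum was miR-199a-3p (mean 1931 CPM), the 1 that was higher. The 3 erythroid miRNAs were all lower, each with an unadjusted p of at most 0.05, and summed to 217 to 371 against 80.9 to 236 CPM. The 2 endothelial miRNAs were both lower, 1 of them with an unadjusted p of at most 0.05. Of the 5 leukocyte miRNAs, 4 were higher and 1 lower by TMM-scaled log2 fold change, 2 of the 5 with an unadjusted p of at most 0.05 (miR-223-3p, higher, and miR-150-5p, lower), and before TMM they summed to 658 to 913 against 486 to 768 CPM. The largest part of this leukocyte sum was miR-150-5p (mean 436 CPM). The liver miRNA miR-122-5p had 0 or 1 count, and the neuronal miR-124-3p and miR-9-5p had 0 to 4 and 16 to 48 counts. The 5 muscle miRNAs that could be tested were all lower, none with an unadjusted p of at most 0.05. The sixth, miR-206-3p, had 0 to 3 counts. edgeR called 0 of these markers. Their part in the miR-140 values was not tested.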

How the data were processed

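The authors made small RNA libraries, sequenced them single-end in 1 lane and mapped reads with Bowtie to the mature miRNAs of miRBase, keeping all best alignments. Their deposited values are whole, unnormalized counts of reads per mature miRNA, in 1 table per library. The submitters' processing notes also name FastQC, HTSeq and DESeq2, and the step that counted reads is not given in the sources used here. The mRNA libraries and a further LLC library were not analysed here.

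Groups came from the sample labels. miRNAs had to exceed 32 counts in some library (304 did) and were tested in R 4.3.3 with edgeR 4.0.16 (TMM, quasi-likelihood F test, Benjamini-Hochberg). Arm ratios, log2 of (3p + 0.5)/(5p + 0.5), were tested with limma 3.58.1 over 74 hairpins. Single values were tested by two-sided exact permutation over the 126 splits of 9 mice, in log2 CPM with a prior count of 2. Shares have 95% Wilson intervals. The tests were tested on simulated data. Structure was predicted with RNAfold 2.7.2. Sequence names matched 1623 of 1915 miRNAs.

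The miRNAs named were both arms, the matrix list, the 5 most and 1 least correlated miRNAs per arm, the 2 neighbours on either side in level, the 3 hairpins nearest in arm ratio and miRNAs sharing the seed. Cell type markers were listed as groups, and some single markers were named for their counts or their unadjusted p. The members and lists were chosen with earlier results of these data known. Alternatives were other scalings, filters, prior counts, pseudocounts and tests (DESeq2 1.42.0, limma), a replicate block, and leaving out each mouse. Leaving out L1 and L5 together was added after seeing the data.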

Additional observations from a re-analysis of the deposited data

Results flagged for a closer look

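A library was marked where it lay far from the others of its group relative to the group's whole range. Chance marks about 1 in 20 groups, and 5 of the 34 groups examined were marked. For mmu-miR-140-5p, C2 was the highest control library at 47.95 CPM, and the next was at 40.19. For miR-199a-3p, L5 was the highest LLC library at 3122 CPM, against 1865 for the next. For miR-199a-5p, L2 was the highest LLC library at 197.1 CPM, against 166.3. For miR-199b-5p, C1 was the highest control library at 58.23 CPM, against 45.84. For miR-21a-5p, C4 was the lowest control library at 1705 CPM, against 1964. The low mmu-miR-140-5p level of L6 was not marked.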

How the results depend on the processing

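Neither miR-140 arm was called under any alternative run, with edgeR adjusted p-values of 0.584 to 0.995 for mmu-miR-140-3p and 0.487 to 0.956 for mmu-miR-140-5p, and the arm ratio was never called (0.615 to 0.990). With L1 and L5 left out, the log2 fold change of mmu-miR-140-3p was 0.0569, and with library totals alone the fold changes were -0.23 and -0.27 for the 3p and 5p arms, a scaling that moved the median of all miRNAs by -0.14. Leaving out 1 mouse at a time gave -0.17 to -0.0033 for mmu-miR-140-3p, -0.16 to 0.0158 for mmu-miR-140-5p (above 0 only without L6) and -0.15 to 0.14 for the arm ratio, by limma and as a single value. The ratio was below 0 without C4, L2 or L6. The replicate numbers did not pair the mice (correlations of -0.249 to -0.0899 over 3 pairs). The replicate block gave -0.12 for the arm ratio, 2 in place of 4 matrix miRNAs with an unadjusted p of at most 0.05, and no miR-140 call. DESeq2 called 8 miRNAs (1 of the matrix list), no filter gave 22 and leaving out L1 and L5 gave 1, in place of 0. Single mice moved the calls from 0 to 8 (8 without L3, 1 without L1), the matrix calls from 0 to 1 and the count of matrix miRNAs with an unadjusted p of at most 0.05 between 2 and 6. With L1 and L5 left out that count was 2. The correlation of the arms was -0.32 to 0.44 with 1 mouse left out and 0.559 with library totals. The cause was not tested. Depth of 65 to 155 counts limits the 3p arm.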
